A study of Xenopus laevis with 4 samples.

Results

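The rows described here are miR-18, miR-19, miR-25, miR-92 and miR-363 in small RNA libraries of Xenopus laevis epidermis. They were chosen by miRNA number alone in the deposited table, whatever their letter, copy or arm, which gave 10 of the 98 listed rows. The study took epidermal explants at stage 11.5, a gastrula whose epidermis is non ciliated, and at stage 26, a tailbud whose epidermis is ciliated. Embryos came from eggs fertilised in vitro, no treatment or allele is named in the labels, and each stage was a pool of 50 explants read as 2 technical libraries, called a and b. On that description each p-value measures the spread between libraries of 1 pool and says nothing of the spread between embryos. The study compared the miRNAs of the non ciliated and the ciliated stage, and ciliation and age cannot be told apart in this design. The source names of the libraries b give a slightly later stage than their stage labels, which is at odds with technical libraries of 1 pool. The stage labels were used, and a difference in age or pool between a and b cannot be told apart from a technical one. Where a pair of values is given for a stage, library a comes first.

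miRNAs of this kind are cut from polycistronic primary transcripts, long RNAs that carry several hairpins in a row. In human and mouse, the miR-17-92 transcript holds miR-17, miR-18a, miR-19a, miR-20a, miR-19b and miR-92a, and is known from proliferating cells and tumours. Its relative miR-106a-363 holds miR-106a, miR-18b, miR-20b, miR-19b, miR-92a and miR-363, and the shorter miR-106b-25 holds miR-106b, miR-93 and miR-25. Hairpins of 1 transcript can still yield unequal amounts of mature miRNA, because each is cut and stabilised on its own. miR-19b and miR-92a lie on more than 1 transcript in those species, so the reads of these rows cannot be given to a transcript. The frog precursors were not located in a genome here, and the shared transcripts are taken from human and mouse.

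A miRNA chooses its target mRNAs mainly through its seed, bases 2 to 8 from the 5′ end. The mature sequences of the table, listed under Xenopus tropicalis names and written as DNA, fall into 3 seeds plus a pair of passenger arms. They are shown with the seed in capitals, because the grouping of all later values rests on it.
miR-18a: tAAGGTGCatctagtgcagatag
miR-18b: tAAGGTGCatctagtgcagttag
miR-19a: tGTGCAAAtctatgcaaaactga
miR-19b: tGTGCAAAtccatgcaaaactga
miR-92a: tATTGCACttgtcccggcctg
miR-92b: tATTGCACtcgtcccggcctc
miR-25: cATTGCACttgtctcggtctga
miR-363-3p: aATTGCACggtatccatctgt
miR-363-5p: cGGGTGGAtcacgatgcaattt
miR-18a*: aCTGCCCTaagtgctccttct

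Several of these rows are close copies. Counted from 1 at the 5′ end, miR-18b and miR-18a differ by the single substitution T20A, and miR-19b and miR-19a by C11T. miR-92b and miR-92a differ by C10T and C21G, and miR-92a shares a run of 12 bases with miR-25. How many mismatches were allowed in assigning reads is not stated, so reads of such pairs may have been split between rows. miR-363-3p shares no run longer than the 7-base seed with miR-92a, miR-92b or miR-25. Outside the 10 rows, miR-367, an early embryonic miRNA, carries the same seed.
miR-367: aATTGCACtgtagcaatggtga

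The unit is CPM, the number of reads given to a row when its library is brought to 1000000 listed miRNA reads. Within a library each value is a whole multiple of the smallest one, which gave 22668 to 30406 reads at stage 11.5 and 41878 to 46892 at stage 26. miR-427, an early embryonic miRNA that clears maternal mRNA, held 81.7% to 87.0% of the reads at stage 11.5 and 6.95% to 7.57% at stage 26. With it set aside, 2937 and 5574 reads remained at stage 11.5, against 43344 and 38966 at stage 26. Values of the 6 members with enough reads for the stage test are therefore given with and without miR-427 in the totals. Markers of epidermis and epithelium (5 rows, among them miR-203 and the miR-200 family) summed to 1.70% to 1.73% of reads at stage 11.5 and 14.7% to 15.6% at stage 26. Markers of multiciliated cells (miR-449, miR-34a and miR-34b) summed to 4.02% and 4.87% at stage 11.5 and 46.0% and 47.0% at stage 26, and all 3 were present at both stages. Muscle markers (2 rows) held at most 0.160%, blood and vessel markers (3 rows) at most 0.128%, and the neural marker miR-218 held at most 0.00441% at stage 11.5 and 1.004% to 1.16% at stage 26. Of the reads other than miR-427, the epidermal markers held 13.3% and 9.29% at stage 11.5 and 15.9% and 16.8% at stage 26, and the multiciliated markers 31.1% and 26.6% against 49.7% and 50.5%. These sums do not describe each marker, as miR-34a took a smaller share of those reads at stage 26. The stage test described below, on that total, called miR-449 and miR-34b higher, and of the epidermal rows only miR-429. On that total the muscle markers were the higher at stage 11.5, with 0.579% and 0.377% against 0.155% and 0.172%, as were the blood and vessel markers, with 0.749% and 0.6997% against 0.02999% and 0.0411%. The part of these cell types in the member values was not tested, and fewer cells of a type cannot be told apart from less RNA per cell.

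The 10 rows together took a larger share of all reads at stage 26, and a smaller share of the reads left when miR-427 was set aside. They held 1.82% and 2.33% of all reads at stage 11.5, and 6.81% and 7.09% of them at stage 26. Of the reads other than miR-427 they held 14.03% and 12.7% at stage 11.5, and 7.36% and 7.62% at stage 26. The stages did not overlap in either form, but their order was opposite. An exact two-sided permutation test of 2 libraries against 2 gave p = 0.333 both ways, the smallest p this design allows. The same p holds for each share and each ratio below whose stages do not overlap.

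**Figure D1:**
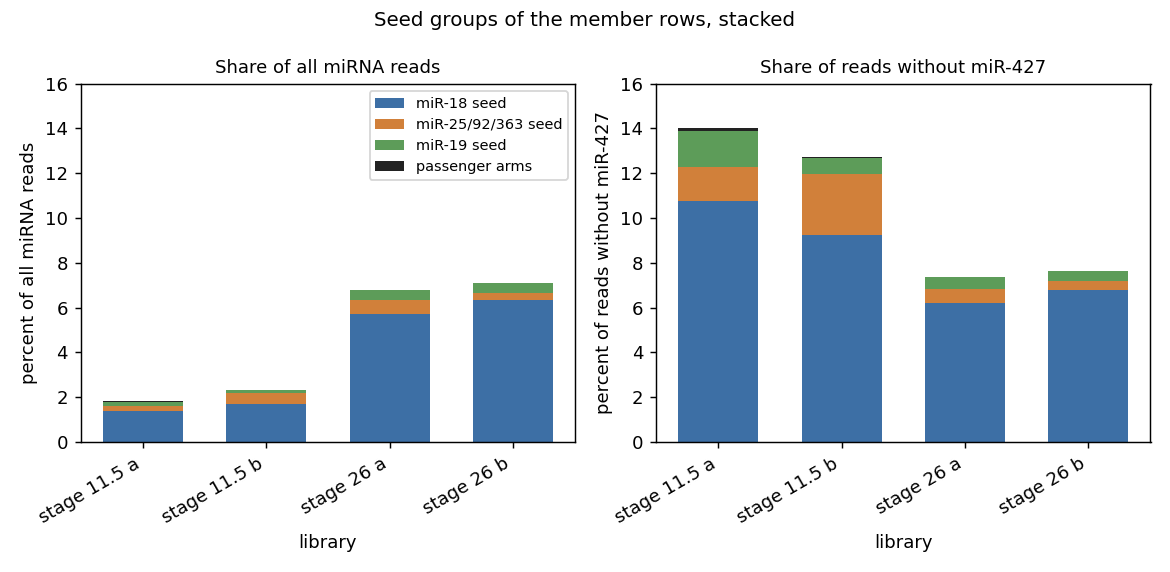
Percent of reads (y axis) held by the 3 seed groups and the passenger arms of the member rows in each of the 4 libraries (stacked bars), of all miRNA reads on the left and of reads without miR-427 on the right. The 10 rows sum to between 1.82% and 7.09% on the left, where stage 26 is the higher, and to between 7.36% and 14.03% on the right, where stage 11.5 is the higher.

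The miR-18 seed was the bulk of the group at both stages. It made up 76.7% and 72.6% of the member reads at stage 11.5, and 84.2% and 89.1% at stage 26, with no overlap between the stages. Nearly all of it was miR-18a, a miRNA of the miR-17-92 transcript known in mammals for repressing connective tissue growth factor. miR-18a stood at 13279 and 16576 CPM at stage 11.5, and at 54658 and 60437 CPM at stage 26. Both stage 26 libraries were above both stage 11.5 libraries in these shares. The order turned with miR-427 out of the totals, at 102486 and 90419.8 CPM at stage 11.5 and 59132 and 64954 CPM at stage 26.

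miR-18b, the copy that lies on the miR-106a-363 transcript in mammals, was a minor row. It stood at 662 and 361.8 CPM (15 and 11 reads) at stage 11.5, and at 2666 and 2746 CPM (125 and 115 reads) at stage 26. The stages were apart in CPM. They overlapped once miR-427 was out of the totals, at 5107 and 1973 CPM against 2884 and 2951 CPM. miR-18a outnumbered miR-18b 20.1-fold and 45.8-fold at stage 11.5, and 20.5-fold and 22.0-fold at stage 26. These ranges overlapped, and the exact permutation test gave p = 1.

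miR-18a*, the passenger arm of the miR-18a hairpin, which is usually discarded when the guide arm is loaded, had no reads at stage 11.5 and 3 reads in each stage 26 library. This was 0.117% of the reads of both arms in library a of stage 26 (exact 95% interval 0.0241% to 0.341%) and 0.118% in library b (0.0244% to 0.346%). The stage 11.5 libraries held 0 reads of 301 and 504, where a floor of 3 reads is 0.997% and 0.595% and the exact upper limits are 1.22% and 0.729%. A stage difference in the use of this arm was thus not detectable at this depth. Reads were not tied to single molecules by identifiers, so the intervals and floors here describe counting error alone.

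The miR-19 seed was split between a row that took a larger share of all reads at stage 26 and a row that did not, and both rows took a smaller share of the reads other than miR-427. miR-19 is known in mice as a tumour-promoting part of the miR-17-92 transcript. miR-19b stood at 1765 and 888 CPM at stage 11.5, and at 4393 and 3797 CPM at stage 26. Its stage 26 libraries were both above its stage 11.5 libraries, which differed from each other about as much as 1 of them did from stage 26. This order turned among the reads other than miR-427, with 13619 and 4844 CPM at stage 11.5 and 4753 and 4080 CPM at stage 26, where library b of stage 11.5 lay just above stage 26. miR-19a stood at 353 and 395 CPM at stage 11.5, and at 362.5 and 382 CPM at stage 26. Its 4 libraries lay within a narrow range and the stages overlapped. That level is 8 and 12 reads at stage 11.5, and 17 and 16 reads at stage 26. miR-19a with miR-427 out of the totals was at 2724 and 2153 CPM at stage 11.5 and at 392 and 411 CPM at stage 26, with no overlap.

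The ratio of the miR-19 rows to each other differed between the stages. Per 100 reads of miR-19b there were 20 and 44.4 reads of miR-19a at stage 11.5, and 8.25 and 10.06 at stage 26. A ratio within a library does not depend on the total, so miR-427 has no part in it. The ratio was 3.27-fold lower at stage 26 (log2 difference -1.71) and the stages did not overlap. The counting interval of library a of stage 11.5, 8.09 to 43.3, overlapped those of stage 26, 4.72 to 13.5 and 5.62 to 16.9. That of library b of stage 11.5, 20.5 to 90.7, did not. Whether reads of miR-19b were counted in the miR-19a row, which differs by C11T alone, was not tested.

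The seed of miR-25, miR-92 and miR-363-3p was carried mostly by miR-92a. Its 4 member rows held 0.194% and 0.4999% of all reads at stage 11.5 and 0.593% and 0.351% at stage 26, which overlapped (exact permutation p = 0.667). miR-92a, which lies on both larger transcripts in mammals and is known in mice for restraining blood vessel growth, stood at 1235 and 4243 CPM at stage 11.5. At stage 26 it stood at 5267 and 2794 CPM. Library b was thus 3.43-fold above a at stage 11.5 and library a 1.89-fold above b at stage 26, and the stages overlapped. With miR-427 out of the totals the values were 9534 and 23143 CPM at stage 11.5 and 5699 and 3003 CPM at stage 26, without overlap.

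This unevenness between libraries was also seen in rows outside the group. By the log2 difference of library b from a at stage 11.5, miR-92a (1.74) ranked 4 of 52 tested rows, behind miR-20b (2.51), miR-93a (1.84) and miR-93b (1.82). By the difference of a from b at stage 26, miR-92a (0.90) again ranked 4, and miR-93b (1.05) and miR-93a (1.05) took the first ranks. miR-221 (0.97), which is not of these transcripts, ranked 3 there, and miR-20b (0.62) ranked 6. The median absolute difference over the 52 rows was 0.44 at stage 11.5 and 0.22 at stage 26. The ratio of miR-92a to miR-93a differed little within a stage, with 35.9 and 34.04 reads per 100 of miR-93a at stage 11.5, and 43.6 and 48.1 at stage 26. The ratio to miR-20b was less even, with 32.2 and 19.2 reads per 100 at stage 11.5, and 23.7 and 19.4 at stage 26. The ratio to miR-18a was 9.30 and 25.6 reads per 100 at stage 11.5, and 9.64 and 4.62 at stage 26, which overlapped.

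miR-363-3p, the guide arm of the last hairpin of the miR-106a-363 transcript in mammals, was low and even. It stood at 706 and 756 CPM (16 and 23 reads) at stage 11.5, and at 533 and 669 CPM (25 and 28 reads) at stage 26. In these shares stage 26 lay slightly below stage 11.5, without overlap. With miR-427 out of the totals it was at 5448 and 4126 CPM at stage 11.5 and at 577 and 719 CPM at stage 26. Its opposite arm, miR-363-5p, had 4 and 3 reads at stage 11.5 and none at stage 26. The pooled stage 11.5 share was 3.90-fold above a floor of 3 reads over both stage 26 libraries, or 22.6-fold with miR-427 out of the totals. The counting error of the 7 reads at stage 11.5 is not in these folds, so they are not lower limits. Of the reads of both arms, miR-363-5p held 20% and 11.5% at stage 11.5 (exact 95% intervals 5.73% to 43.7% and 2.45% to 30.2%). At stage 26 it held 0 of 25 and 0 of 28 reads, where a floor of 3 reads is 12% and 10.7% and the exact upper limits are 13.7% and 12.3%. Pooled over libraries, it held 15.2% of 46 reads at stage 11.5 (6.34% to 28.9%) and 0 of 53 at stage 26 (up to 6.72%). Both stage 11.5 libraries thus lay above both stage 26 libraries, while the intervals overlapped per library and, narrowly, when pooled.

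miR-25 and miR-92b were near the detection limit. miR-25, which is cut with miR-93 from the short miR-106b-25 transcript in mammals, had no reads at stage 11.5 and 3 and 2 reads at stage 26. This pools to 56.3 CPM at stage 26, under the 56.5 CPM that 0 reads allow at stage 11.5. miR-92b had 3 reads, all in library a of stage 26. No stage difference of either row was detectable at this depth. miR-93a, the transcript neighbour of miR-25, had 78 and 379 reads at stage 11.5 and 567 and 243 at stage 26. miR-367, which carries the same seed without belonging to these transcripts, had 6 and 23 reads at stage 11.5 and none at stage 26. With it included, the seed held 0.221% and 0.576% of all reads at stage 11.5, which still overlapped stage 26.

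**Figure D2:**
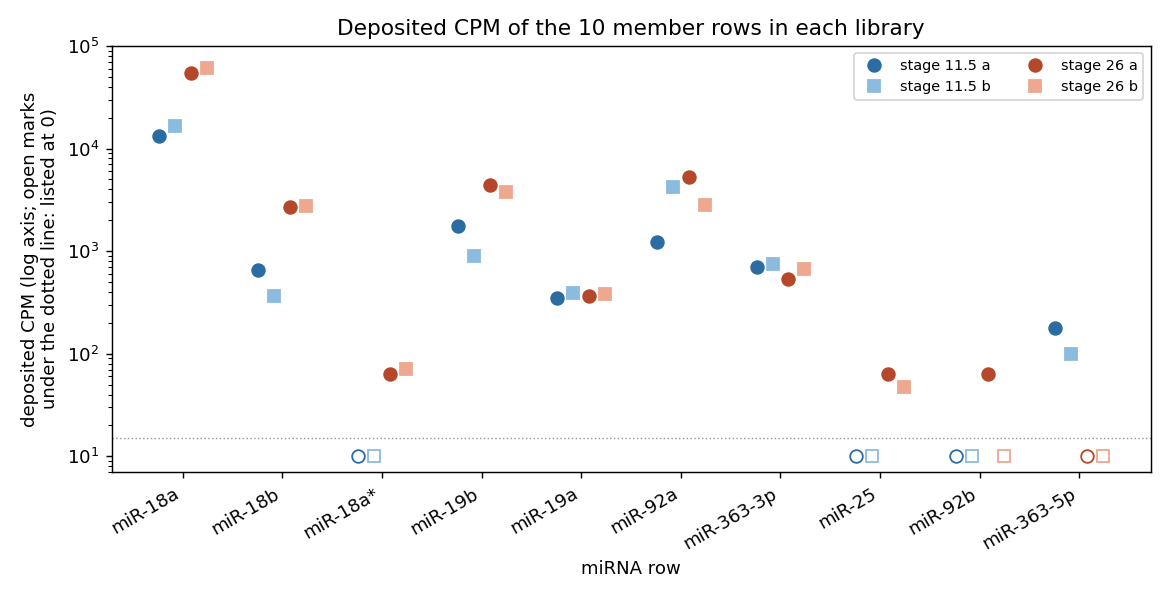
Deposited CPM (log y axis) of the 10 member rows (x axis) in each of the 4 libraries, with open marks under the dotted line for rows listed at 0. The stage 26 marks of miR-18a, miR-18b and miR-19b lie above their stage 11.5 marks, those of miR-19a and miR-92a overlap, and those of miR-363-3p lie slightly below.

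The stage test found falls of miR-19a and miR-363-3p after scaling, while their deposited shares changed little. In the deposited shares it found rises of miR-18a, miR-18b and miR-19b. It was a limma fit on log2(CPM + 50) over the 52 rows that passed a filter on low values, with rows called at a Benjamini-Hochberg adjusted p under 0.05. TMM scaling (trimmed mean of M values) takes the common level of the libraries from a trimmed middle part of the rows. This scaling lowered stage 26 against stage 11.5 by 1.98 (log2). It assumes that most rows do not change, whereas 31 of the 52 tested rows were called after it. Of the 10 members, 6 were tested, each with more than the filter's CPM limit in all 4 libraries, and miR-18a*, miR-25, miR-92b and miR-363-5p were too low. After scaling, 0 of the 6 were called higher by limma, against 38.5% of all tested rows, and 2 were called lower, against 21.2%. In the deposited CPM 3 were called higher, against 71.2% of all tested rows, and 0 lower, against 11.5%. With miR-427 out of the totals 0 were called higher, against 26.9%, and 2 lower, also against 26.9%. Each of these counts of 0 was also 0 at an unadjusted limma p under 0.05, and no other tool was run. With 6 rows tested, nothing particular to the members is read from these shares.

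The median log2 change of the 6 tested members was -0.74 after scaling, against 0.47 over all 52 rows. In deposited CPM the medians were 1.20 and 2.27, and with miR-427 out of the totals -1.35 and -0.12. The members' median was below that of all tested rows under each of these 3 scalings, which is a description without a test. A scaling moves all rows of a library by nearly the same amount, so the 3 comparisons are not separate observations.

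miR-363-3p fell after scaling with a log2 change of -2.10 (SE 0.256, limma adjusted p = 0.00184), and with miR-427 out of the totals with -2.79 (SE 0.461, limma adjusted p = 0.00837). In deposited CPM it did not pass (log2 -0.27, SE 0.263, limma adjusted p = 0.375). miR-19a fell after scaling with a log2 change of -1.74 (SE 0.206, limma adjusted p = 0.00172), and with miR-427 out of the totals with -2.45 (SE 0.426, limma adjusted p = 0.00916). In deposited CPM it did not pass (log2 -0.0037, SE 0.214, limma adjusted p = 0.987). The scaled changes of both rows are close to the shift of -1.98 (log2) made by scaling. Their falls are thus relative to the level set by scaling, or to the reads other than miR-427. These calls rest on few reads, 8 to 17 per library for miR-19a and 16 to 28 for miR-363-3p. The fit took log2 CPM and was not given the read numbers. Its SE combines the row's own spread between libraries with a trend of that spread over all tested rows. It can be smaller than the counting error. With the letters a and b as a replicate block the SE was 0.422 for miR-19a and 0.489 for miR-363-3p, and both were still called. Both calls needed both libraries of stage 26. Leaving out library a of stage 26 gave a limma adjusted p of 0.106 for miR-363-3p and 0.0878 for miR-19a, and leaving out library b gave 0.0973 and 0.0767, with negative log2 changes throughout.

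miR-18a rose in deposited CPM (log2 1.95, limma adjusted p = 0.000806). Its log2 change was -0.03 after scaling (SE 0.222, limma adjusted p = 0.908) and -0.63 with miR-427 out of the totals (SE 0.205, limma adjusted p = 0.0583). The change of miR-18a in CPM is close to the shift made by scaling, which was computed from rows that include it, so its small scaled value is no separate evidence of an even level. With factors taken only from tested rows outside the members and miR-17, miR-20, miR-93 and miR-106, an alternative chosen after seeing the data, its log2 change was -0.74 (limma adjusted p = 0.168).

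miR-18b and miR-19b, like miR-18a, were called higher in deposited CPM and in neither other scaling, though their changes there differed from those of miR-18a. miR-18b rose in deposited CPM (log2 2.35, limma adjusted p = 0.00181), and its log2 change was 0.46 after scaling (SE 0.422, limma adjusted p = 0.417) and -0.12 with miR-427 out of the totals. That scaled value depended on the library: with library a of stage 11.5 left out it passed (log2 0.92, limma adjusted p = 0.0260), and with library b left out it was -0.16 (limma adjusted p = 0.315). miR-19b rose in deposited CPM (log2 1.66, limma adjusted p = 0.0172), and its log2 change was -0.27 after scaling (SE 0.496, limma adjusted p = 0.675) and -0.88 with miR-427 out of the totals (SE 0.617, limma adjusted p = 0.276). With library a of stage 11.5 left out the scaled log2 change of miR-19b was 0.25 (limma adjusted p = 0.387), and with library b left out -0.97 (limma adjusted p = 0.0583).

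miR-92a did not pass under any of these 3 scalings. Its log2 change was 0.73 (SE 0.703, limma adjusted p = 0.375) in deposited CPM, -1.22 (SE 0.700, limma adjusted p = 0.199) after scaling and -1.83 (SE 0.625, limma adjusted p = 0.0671) with miR-427 out of the totals. The scaled log2 change became -2.07 with library a of stage 11.5 left out and -0.55 with library b left out, and it passed in neither fit.

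**Figure D3:**
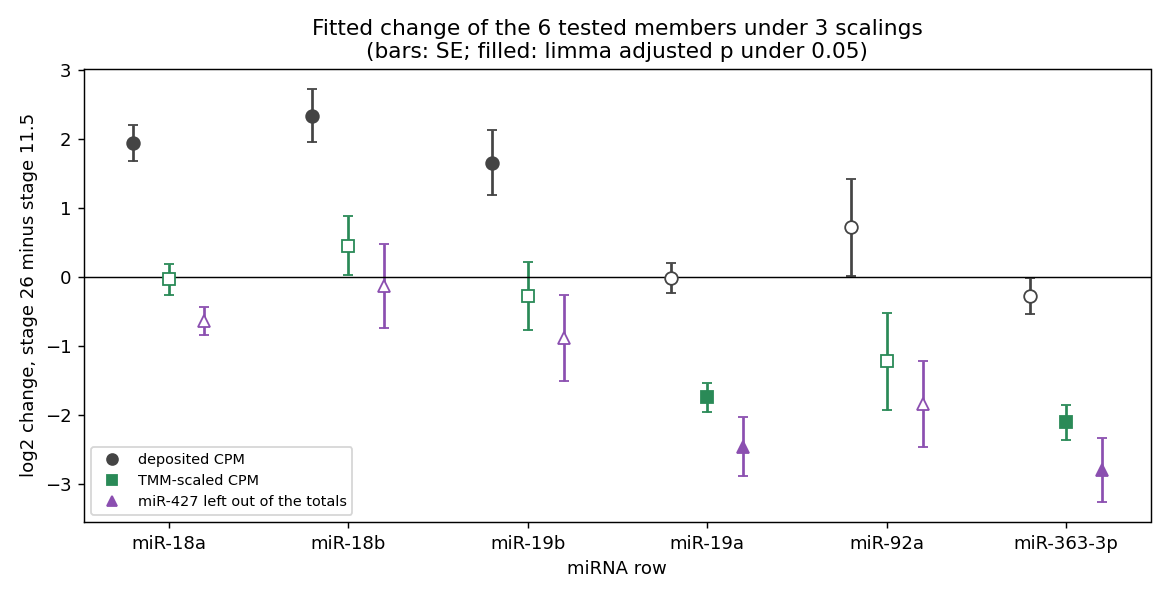
Log2 change from stage 11.5 to stage 26 (y axis) of the 6 tested members (x axis) in deposited CPM, after TMM scaling and with miR-427 left out of the totals (marks), with SE bars and filled marks for limma adjusted p under 0.05. miR-18a, miR-18b and miR-19b are filled and positive in deposited CPM, and miR-19a and miR-363-3p are filled and negative in the other scalings.

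Rows that lie on 1 transcript in mammals were compared within each library, with miR-17-5p, the most abundant row of these transcripts on average at stages 11.5 and 26, as the reference. Per 100 reads of miR-17-5p there were 75.4 and 96.6 reads of miR-18a at stage 11.5, and 80.9 and 98.4 at stage 26. These overlapped, and their mean log2 ratio differed by 0.06 between the stages. miR-17-5p and miR-18a, neighbours on the miR-17-92 transcript, took 3.71-fold and 3.86-fold larger shares of all reads at stage 26.

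miR-19a, of the same transcript in mammals, had a lower ratio to both at stage 26. Per 100 reads of miR-17-5p it had 2.005 and 2.30 reads at stage 11.5, and 0.537 and 0.622 at stage 26. This is a 3.72-fold lower ratio (log2 difference -1.89), and the stages did not overlap. The counting interval of library a of stage 11.5 (0.860 to 3.99) overlapped those of stage 26 (0.312 to 0.861 and 0.355 to 1.01), and that of library b (1.18 to 4.05) did not. Against miR-18a, miR-19a had 2.66 and 2.38 reads per 100 at stage 11.5 and 0.663 and 0.632 at stage 26. That ratio was 3.88-fold lower, with counting intervals that did not overlap between the stages.

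miR-19b and miR-92a, the other members found on that transcript in mammals, kept no clear order. miR-19b had 10.03 and 5.17 reads per 100 of miR-17-5p at stage 11.5, and 6.50 and 6.18 at stage 26. miR-92a had 7.02 and 24.7 at stage 11.5, and 7.80 and 4.55 at stage 26. Both rows overlapped between the stages, and their stage 11.5 libraries differed by more than their stage 26 libraries.

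miR-363-3p also had a lower ratio to miR-17-5p at stage 26, and to miR-106 and miR-18b of the miR-106a-363 transcript in mammals. The ratio to miR-92a, its neighbour there, overlapped between the stages. miR-363-3p had 4.01 and 4.41 reads per 100 of miR-17-5p at stage 11.5, and 0.789 and 1.09 at stage 26. This is a 4.53-fold lower ratio (log2 difference -2.18). Per 100 reads of miR-106 it had 21.6 and 16.3 reads at stage 11.5, and 3.001 and 4.24 at stage 26, a 5.27-fold lower ratio. Per 100 reads of miR-18b it had 106.7 and 209 reads at stage 11.5, and 20 and 24.3 at stage 26, a 6.77-fold lower ratio. In each of these 3 ratios the stages did not overlap, and the counting intervals of the stages were apart as well. The miR-106 row carries no letter, and its place on the miR-106a-363 transcript is assumed. It shares a run of 22 bases with miR-20a, and miR-18b differs from miR-18a by T20A alone. Whether reads of miR-20a and miR-18a were counted in the miR-106 and miR-18b rows was not tested. Per 100 reads of miR-92a, miR-363-3p had 57.1 and 17.8 reads at stage 11.5, and 10.1 and 23.9 at stage 26, which overlapped (exact permutation p = 0.667). By the mean log2 ratio this was 2.05-fold lower at stage 26, and a stage difference is unresolved. miR-106 itself had 18.5 and 27.01 reads per 100 of miR-17-5p at stage 11.5 and 26.3 and 25.7 at stage 26, which overlapped. miR-18b had 3.76 and 2.11 reads per 100 of miR-17-5p at stage 11.5, and 3.95 and 4.47 at stage 26. This is a 1.49-fold higher ratio, and the stages did not overlap, while the counting intervals did.

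miR-19a and miR-363-3p, which carry different seeds, differed much less from each other in their change. There were 50 and 52.2 reads of miR-19a per 100 of miR-363-3p at stage 11.5, and 68 and 57.1 at stage 26. The stages did not overlap, but all 4 counting intervals of this ratio did, the widest being 18.5 to 123.8 in library a of stage 11.5.

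**Figure D4:**
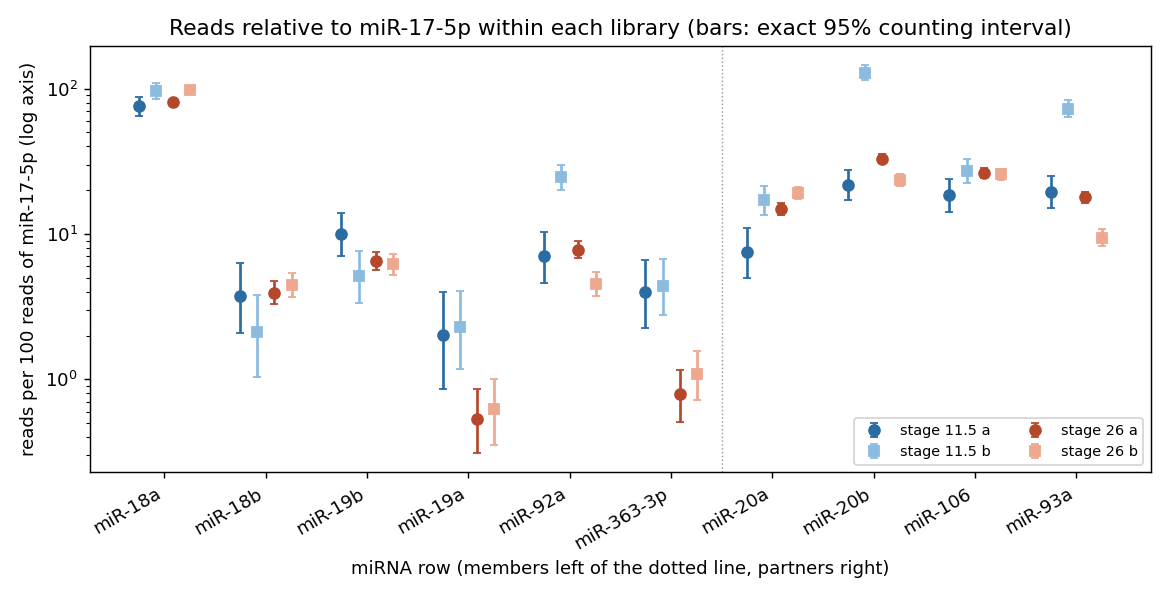
Reads per 100 reads of miR-17-5p (log y axis) for the 6 tested members and 4 partner rows (x axis) in each of the 4 libraries, with exact 95% counting intervals as bars. miR-18a stays between 75.4 and 98.4, while miR-19a, miR-363-3p and miR-93a are lower in both stage 26 libraries and miR-18b is slightly higher. miR-92a, miR-20b and miR-93a stand high in library b of stage 11.5.

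The other rows of these transcripts, named miR-17, miR-20, miR-93 and miR-106, were all tested. Of these 6 rows, 0 were called higher by limma after scaling, against 38.5% of all tested rows, and 0 lower, against 21.2%. After scaling 0 had an unadjusted limma p under 0.05. In deposited CPM 3 were called higher (miR-17-5p, miR-20a and miR-106), against 71.2% of all tested rows, and 0 lower, against 11.5%. With miR-427 out of the totals 0 were called higher, against 26.9%, and 2 lower, also against 26.9%. The rows called lower are miR-93a and miR-93b, whose sequences overlap, so they are not separate evidence. With 6 rows tested, nothing particular to these rows is read from these shares. The median log2 change of the 6 rows was -0.56 after scaling and 1.42 in deposited CPM, between the medians of the members and of all tested rows. miR-20a rose in deposited CPM (log2 2.43, limma adjusted p = 0.00603) and had 7.52 and 17.05 reads per 100 of miR-17-5p at stage 11.5 and 14.8 and 19.3 at stage 26, which overlapped.

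Among the 46 tested rows outside the group, the rows nearest to the summed miR-18 seed over the 4 libraries were miR-106, miR-17-5p and miR-130a. Nearness was the Euclidean distance of log2(CPM + 50) profiles centred on their means, which was 0.297, 0.308 and 0.566 for these rows against a median of 1.47. The rows nearest to the miR-19 seed were miR-7 (0.163), miR-130a (0.354) and miR-34a (0.509), against a median of 1.83. That summed profile is mostly miR-19b, with 432 reads over the 4 libraries against 53 of miR-19a. The rows nearest to the seed of miR-25, miR-92 and miR-363-3p were miR-93b (0.447), miR-93a (0.455) and miR-20b (0.927), against a median of 2.80. Rows of a library share its total, so these distances only describe the profiles.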

How the data were processed

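Small RNA libraries of 2 stages with 2 libraries each, prepared with the SREK kit according to the labels, were analysed from 1 table. The authors deposited CPM values, which sum to 1000000 in each column over 98 rows. The aligner, mismatch setting and miRNA release are not stated there. Every value was a whole multiple of its column's smallest nonzero value (tolerance 1e-06), taken as 1 read. This gave the reads, floors of 3 reads and exact (Clopper-Pearson) 95% intervals.

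Stages were compared with limma 3.58.1 in R 4.3.3, with a mean-variance trend, on TMM-scaled CPM with 50 CPM added before taking log2. TMM trimmed 30% of M and 5% of A values at each end, over tested rows. A row was tested if 2 or more libraries reached 276.7 CPM (10 reads at median depth) and its reads summed to 15 or more. Folds on this scale understate changes of low rows. The fit was tested on simulated data in which a minority of rows changed, equally up and down, and no row as abundant as miR-427 did. That test does not cover a fall of miR-427 like the one in these data. Shares and log2 ratios were compared by exact two-sided permutation.

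Named rows are all members, the partner rows miR-17, miR-20, miR-93 and miR-106, rows sharing a member's seed, miR-427, the marker rows of cell types, and the 3 tested rows nearest to each seed group. Members and lists were chosen with earlier results of these data known. Alternatives covered scaling, filters, pseudocounts, the trend, a replicate block, contained sequences summed, rows left out and libraries left out, where the filter asked for 1 library if a stage had 1 left.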

Additional observations from a re-analysis of the deposited data

How the results depend on the processing

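After scaling, 31 of 52 rows were called (64.5% of them higher). The count was 48 of 98 with no filter, 43 in deposited CPM (86.0% higher), 28 with miR-427 out of the totals (50% higher) and 24 with factors from rows outside these transcripts (45.8% higher). It ranged from 12 to 33 with a library left out, at 12 without either library of stage 26, where the lone library is assumed to vary like the others. With the letters a and b as a replicate block it was 29, and the deviations of the libraries a from their stage means correlated between the stages at r = -0.26 over 52 rows; the letters are not stated to pair libraries. In deposited CPM the log2 changes were 0.73 (miR-92a), 1.66 (miR-19b), 1.95 (miR-18a), 2.35 (miR-18b), -0.0037 (miR-19a) and -0.27 (miR-363-3p), and the last 2 lost their calls. The sign of miR-18a also turned with relative log expression (RLE) factors (0.12), and that of miR-18b with miR-427 out of the totals (-0.12) and with factors from rows outside (-0.22). With a library left out, log2 changes ranged from -1.90 to -1.59 for miR-19a, -2.29 to -1.85 for miR-363-3p, -0.16 to 0.13 for miR-18a, -0.16 to 0.92 for miR-18b and -0.97 to 0.25 for miR-19b. With miR-427 out of the totals, the stage 26 minus stage 11.5 share turned to -3.50 percentage points for the miR-18 seed, -0.69 for miR-19, -1.60 for miR-25, miR-92 and miR-363-3p, and -5.88 for all 10 rows, from 4.48, 0.28, 0.12 and 4.88. With a library left out, the third of these differences ranged from -0.028 to 0.28 with all reads as the total. The stage 26 minus stage 11.5 difference of the log2 ratio of miR-18b to miR-18a then ranged from -0.082 to 1.11. That of miR-19b to miR-18a ranged from -0.90 to 0.41. Between the shares with and without miR-427 in the totals, the reads of the rows were the same and only the total differed. The cause of the other turns was not tested. Calls of miR-19a and miR-363-3p each passed in 13 of 16 alternatives. The stage 26 minus stage 11.5 differences of their log2 ratios to miR-18a were negative in every alternative run. The deposited unit is CPM, and a planned count test on the recovered reads was not run. Whether the calls of miR-19a and miR-363-3p, which rest on few reads, would hold in a count test was not tested.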
